A study of Mus musculus with 18 samples.

Results

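Cytokines of the interleukin-12 (IL-12) and interleukin-1 (IL-1) families, together with IL-15, IL-6 and tumour necrosis factor, were examined in sorted thymic dendritic cells (DCs) of the mouse. The 10 genes are Il12a, Il12b, Il23a, Ebi3, Il27, Il15, Il18, Il1b, Il6 and Tnf. Each was taken from the probesets of the expression table that carry exactly 1 gene symbol, by the probeset with the highest mean where a gene had several. All 10 of 10 were found, each on 1 probeset, among 19938 genes named in this way.

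The cells were CD8a+ XCR1+ DCs, the cross-presenting type, sorted from thymus as CCR7- (immature) or CCR7+ (mature) cells of untreated mice. Each stage was sampled from 3 backgrounds. These were wild-type B6 mice in specific-pathogen-free housing (CTRL), mice lacking Ifnar1, a chain of the type I interferon receptor (Ifnar1-KO), and germ-free mice (GF), which have no microbes. The 6 groups hold 3 arrays each, 18 in all. The labels do not say whether arrays came from separate mice or from pools, so p-values measure the spread between these arrays. As stated in the series title, the study asked about maturation of these cells without type I interferon signalling or without a microflora.

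IL-12 family cytokines are heterodimers. The p40 chain, encoded by Il12b, pairs with p35 (Il12a) to form IL-12 or with p19 (Il23a) to form IL-23, and the EBI3 chain pairs with p28 (Il27) to form IL-27. IL-12 from DCs drives interferon-gamma production by T and NK cells. IL-15 is presented on the DC surface by its receptor alpha chain and supports NK cells and memory-type T cells. IL-1 beta and IL-18 are made as inactive precursors that inflammasome caspases cut, so a transcript level is not a level of active cytokine. CCR7 is a chemokine receptor and marks the mature cells sorted here. In the thymic medulla, mature DCs present self antigens to developing T cells.

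Promoter sequences from RefSeq (GRCm38.p6) were matched by symbol for 7 of the 10 genes; Il23a, Il27 and Il15 had no entry. Sequences are shown for a gene that rose (Il12b), a gene that fell (Il1b) and the only gene that matched any of 4 searched motifs (Il6). Each is the 250 bases before the transcription start, 5′ to 3′ on the gene's strand. The intervals are chr11:44399813-44400062 on the plus strand for Il12b, chr2:129371140-129371389 on the minus strand for Il1b and chr5:30012864-30013113 on the plus strand for Il6. Capitals mark TATANA in Il12b and Il1b, and the motif matches in Il6.
Il12b: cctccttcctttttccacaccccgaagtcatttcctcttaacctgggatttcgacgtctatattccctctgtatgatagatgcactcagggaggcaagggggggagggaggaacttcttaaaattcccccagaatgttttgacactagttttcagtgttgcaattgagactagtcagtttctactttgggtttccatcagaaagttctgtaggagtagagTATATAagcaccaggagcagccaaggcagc
Il1b: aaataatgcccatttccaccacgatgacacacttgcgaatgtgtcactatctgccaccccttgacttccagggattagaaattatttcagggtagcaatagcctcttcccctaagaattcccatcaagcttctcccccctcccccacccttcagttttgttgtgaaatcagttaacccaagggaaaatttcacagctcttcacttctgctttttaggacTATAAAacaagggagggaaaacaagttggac
Il6: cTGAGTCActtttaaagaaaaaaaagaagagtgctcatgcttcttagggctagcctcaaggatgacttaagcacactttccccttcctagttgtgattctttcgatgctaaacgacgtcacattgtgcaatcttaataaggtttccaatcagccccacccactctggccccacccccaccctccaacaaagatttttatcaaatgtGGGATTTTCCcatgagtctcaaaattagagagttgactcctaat
Motifs were searched on both strands. The NF-kB motif (GGG, then 2 bases of any kind, then TTTCC) was present in 1.41% of 32851 mouse promoters. The core of the interferon-stimulated response element (GAAA, then 2 bases of any kind, then GAAA), which interferon regulatory factors bind, was present in 2.98%. The AP-1 motif TGANTCA was present in 6.75% and the STAT motif TTCNNNGAA in 7.02%. In Il6, GGGATTTTCC lay 44 to 35 bases before the start and TGAGTCA 249 to 243 bases before it. The letters TATANA, which belong to the core promoter element that positions the start of transcription, were sought on the gene's strand 45 to 15 bases before the start. This search was added after the sequences had been seen, and 3.42% of promoters held a match. They began 30 bases before the start in Il12b, 31 in Il1b and 29 in Tnf, and were not in that window of Il12a, Ebi3, Il18 or Il6. These matches are descriptions of letters and were not related to the expression values.

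Values are log2 expression levels, so a difference of 1 is a doubling. Arrays of 1 group correlated at 0.974 to 0.996 over all genes. Xcr1 was at 11.51 ± 0.06 (SD, n = 3) on CTRL CCR7- arrays and 6.40 ± 0.09 on CTRL CCR7+ arrays, and Ccr7 was at 8.99 ± 0.04 and 11.98 ± 0.09. The mean of 8 mature DC markers was 6.94 to 8.33 on CCR7- arrays and 11.18 to 11.44 on CCR7+ arrays. The mean of 13 thymocyte markers was 4.50 to 5.54 on CCR7- arrays and 5.37 to 8.30 on CCR7+ arrays, with the highest on Ifnar1-KO CCR7+ replicate 2. On CCR7- arrays Ifnar1 read 8.07, 7.27 and 7.66 in Ifnar1-KO replicates 1, 2 and 3, beside 8.06 to 8.09 in CTRL. On CCR7+ arrays it read 7.61, 6.07 and 6.96, beside 7.61 to 7.82. Ifnar1-KO replicate 1 thus lay within the CTRL range at both stages, and replicates 2 and 3 lay below it. The probeset may lie outside the deleted part, which was not tested, and these values do not settle the genotype. The Y-linked gene Eif2s3y was at 3.34 to 3.49 in CTRL, 5.22 to 7.84 in Ifnar1-KO and 7.71 to 8.76 in GF. Xist, expressed in female cells, was at 7.80 to 9.63 in CTRL, 6.14 to 8.91 in Ifnar1-KO and 3.80 to 4.37 in GF. The Ifnar1-KO arrays thus carried both signals, and sex and background cannot be told apart. Ifnar1-KO replicate 2 and GF replicates 2 and 3, at both stages, stood apart from the other 12 arrays on the second principal component, which held 4.20% of the variance.

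The change with maturation is the mean of CCR7+ minus CCR7- arrays, tested by limma over all genes with Benjamini-Hochberg adjustment and called at an adjusted p under 0.05. In CTRL, Il12b, Il15, Il27, Ebi3 and Il12a rose, and Il18 and Il1b fell. Thus 7 of 10 were called, against 26.2% of all genes, with 5 higher against 12.6% and 2 lower against 13.6%. In Ifnar1-KO, 7 were called against 20.2% of all genes, with 5 higher against 9.42% and 2 lower against 10.8%. In GF, 8 were called against 21.3%, with 6 higher against 9.53% and 2 lower against 11.8%. The median change of the 10 genes was 0.43, 0.69 and 0.63 in CTRL, Ifnar1-KO and GF, beside 0.07, 0.0040 and 0.03 for all genes. Without GF replicates 2 and 3, which leaves 1 GF array per stage, the GF count was 4.

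**Figure D1:**
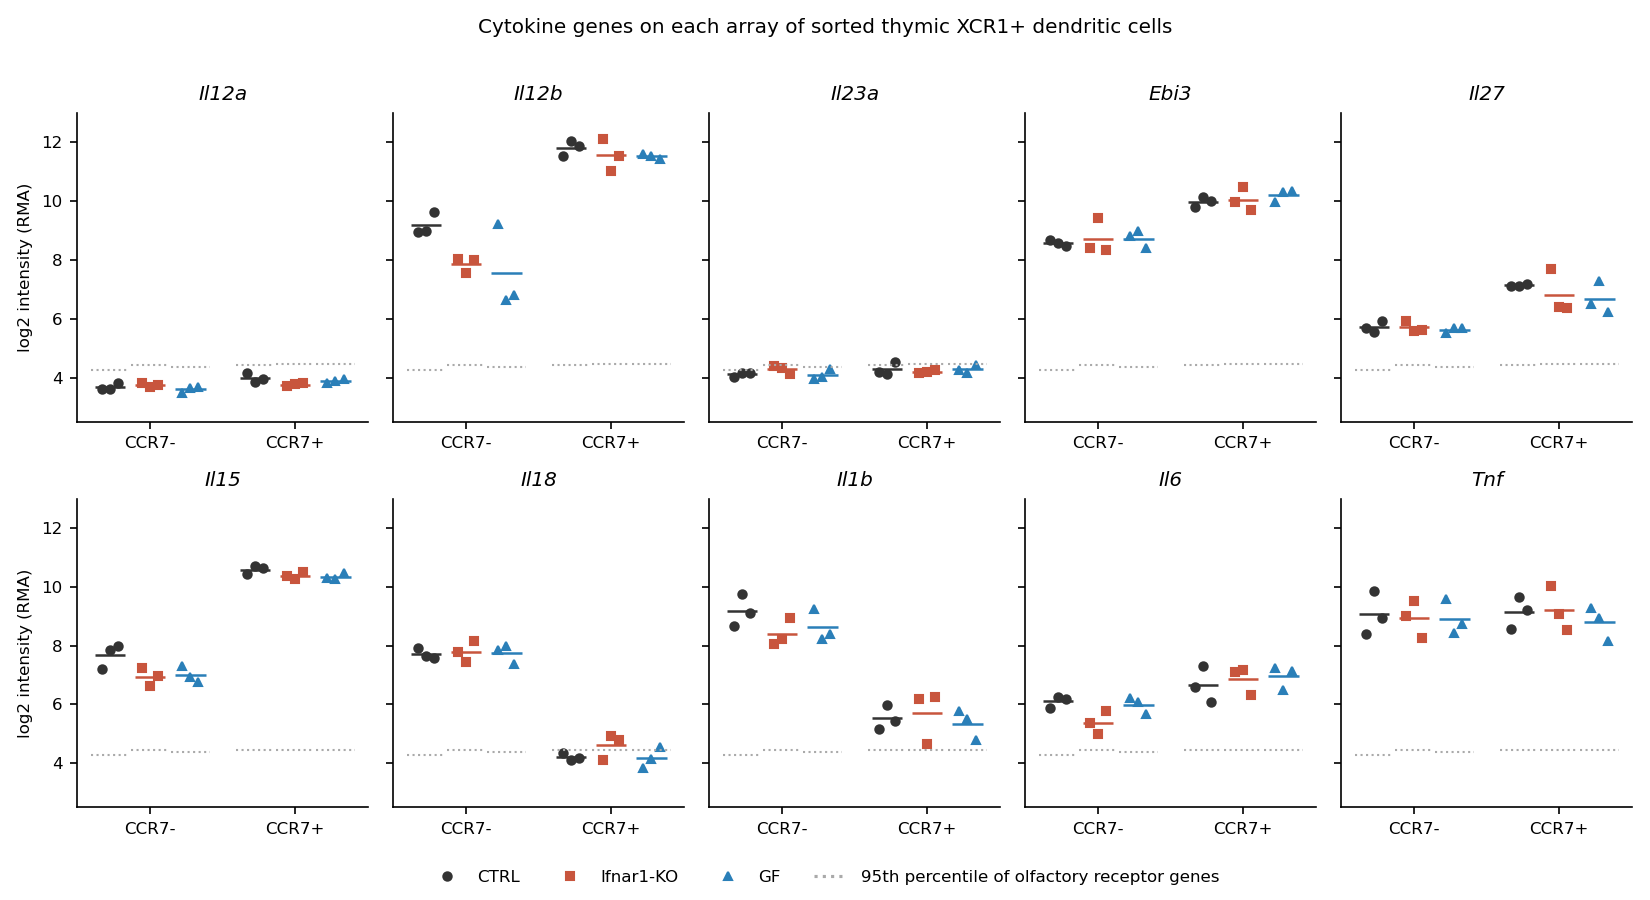
Log2 level of each of the 10 genes (vertical axes) on every array, by background and stage (horizontal axes), with 1 point per array and a bar at the group mean; dotted lines mark the background level from olfactory receptor genes. Il12b and Il15 are higher and Il18 and Il1b lower on every CCR7+ array than on any CCR7- array, while Tnf overlaps between the stages in each background.

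Il12b, the p40 chain, was already above background in immature cells and rose in each background. CTRL cells gave 8.97, 8.99 and 9.63 on CCR7- arrays and 11.54, 12.04 and 11.88 on CCR7+ arrays. Ifnar1-KO cells gave 8.04, 7.55 and 8.01, then 12.11, 11.04 and 11.53. GF cells gave 9.24, 6.63 and 6.80, then 11.60, 11.54 and 11.42. All CCR7+ arrays lay above all CCR7- arrays, and among the immature arrays GF replicate 1 was near the CTRL values while the other 2 GF arrays were the lowest of the 18. The change was 2.62 ± 0.50 (SE), a 6.16-fold rise, in CTRL (limma adjusted p = 0.00106). It was 3.69 ± 0.50 or 12.9-fold in Ifnar1-KO (limma adjusted p = 6.24e-05) and 3.97 ± 0.50 or 15.6-fold in GF (limma adjusted p = 3.04e-05). Without GF replicates 2 and 3 the GF change was 2.37 (limma adjusted p = 0.00849). In order of mean level, the groups ran from GF CCR7- (7.56 ± 1.46 SD) through Ifnar1-KO CCR7- (7.87 ± 0.28) and CTRL CCR7- (9.20 ± 0.38) to GF, Ifnar1-KO and CTRL CCR7+ cells at 11.52 ± 0.09, 11.56 ± 0.54 and 11.82 ± 0.25. The 3 CCR7+ means lay within the spread of their arrays.

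The partners of p40 were near background at both stages. The background level was set at the 95th percentile of the group means of 1027 olfactory receptor genes, 4.27 to 4.46 by group. Il12a, the p35 chain, read 3.49 to 4.17 over the 18 arrays, and Il23a, the p19 chain, read 3.96 to 4.53, so all 6 group means of each lay at or below that level. The probesets of p35 and p19 therefore gave a bound rather than a level, and cells at neither stage showed a signal from them that could be told from background. Il12a nevertheless passed the test with small changes of 0.30 ± 0.09 in CTRL (limma adjusted p = 0.0204) and 0.29 ± 0.09 in GF (limma adjusted p = 0.0308). In Ifnar1-KO it changed by 0.014 ± 0.09. The CTRL call was lost without CCR7- replicate 1 (adjusted p = 0.0876), CCR7- replicate 2 (0.0784) or CCR7+ replicate 1 (0.102). The GF call was lost without CCR7- replicate 1 (0.134), CCR7+ replicate 2 (0.0653) or CCR7+ replicate 3 (0.109). Il23a changed by 0.17 ± 0.12 in CTRL, -0.08 ± 0.12 in Ifnar1-KO and 0.20 ± 0.12 in GF, and no call was made.

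Ebi3, the chain shared by IL-27 and IL-35, rose in each background and had its lowest level well above background. In CTRL it read 8.70, 8.60 and 8.48 on CCR7- arrays and 9.79, 10.13 and 10.02 on CCR7+ arrays. In Ifnar1-KO the values were 8.40, 9.45 and 8.34, then 9.97, 10.50 and 9.71. In GF they were 8.80, 8.98 and 8.41, then 9.99, 10.33 and 10.34. Stages did not overlap in any background, with Ifnar1-KO CCR7- replicate 2 the highest immature array. The rise was 1.39 ± 0.26 in CTRL, or 2.63-fold (limma adjusted p = 0.000913), 1.33 ± 0.26 in Ifnar1-KO, or 2.51-fold (0.00157), and 1.48 ± 0.26 in GF, or 2.80-fold (0.000611). With 1 GF array per stage the GF change was 1.18 (limma adjusted p = 0.169).

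Il27, the p28 chain, rose less evenly. The CTRL values were 5.69, 5.57 and 5.93 on CCR7- arrays and 7.13, 7.12 and 7.19 on CCR7+ arrays. Those of Ifnar1-KO were 5.93, 5.60 and 5.61, then 7.71, 6.40 and 6.37. Those of GF were 5.51, 5.71 and 5.70, then 6.50, 7.29 and 6.24. The CTRL arrays were close together at each stage, whereas 1 mature array in each of the other backgrounds stood above its partners. The change was 1.42 ± 0.30 in CTRL, or 2.67-fold (limma adjusted p = 0.00252), 1.11 ± 0.30 in Ifnar1-KO, or 2.15-fold (0.0159), and 1.04 ± 0.30 in GF, or 2.05-fold (0.0222). Without Ifnar1-KO CCR7+ replicate 1 the Ifnar1-KO change was 0.67 (limma adjusted p = 0.0594), and without Ifnar1-KO CCR7- replicate 3 it was 1.06 (0.0545). Without GF CCR7+ replicate 2 the GF change was 0.73 (limma adjusted p = 0.114), and without GF CCR7- replicate 1 it was 0.98 (0.0727).

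Il15 had the smallest standard error of the genes that rose by over 1 in all 3 backgrounds. CTRL cells gave 7.20, 7.84 and 7.99 on CCR7- arrays and 10.42, 10.69 and 10.63 on CCR7+ arrays. Ifnar1-KO cells gave 7.24, 6.62 and 6.96, then 10.36, 10.27 and 10.49. GF cells gave 7.32, 6.94 and 6.76, then 10.29, 10.25 and 10.48. Every mature array was above 10, and no immature array reached 8. The rise was 2.91 ± 0.20, or 7.49-fold, in CTRL (limma adjusted p = 6.23e-08). It was 3.43 ± 0.20, or 10.8-fold, in Ifnar1-KO (limma adjusted p = 1.14e-08) and 3.33 ± 0.20, or 10.1-fold, in GF (limma adjusted p = 1.81e-08).

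Il18 fell from a clear level to near background. In CTRL it read 7.93, 7.64 and 7.59 on CCR7- arrays and 4.34, 4.11 and 4.19 on CCR7+ arrays. In Ifnar1-KO it read 7.77, 7.44 and 8.16, then 4.12, 4.94 and 4.78. In GF it read 7.87, 7.99 and 7.37, then 3.83, 4.13 and 4.56. The CCR7+ means of CTRL and GF lay at or below the background level and that of Ifnar1-KO just above it, so the CTRL and GF falls may be lower bounds. Il18 fell by 3.51 ± 0.24 in CTRL, or 11.4-fold (limma adjusted p = 6.78e-08), by 3.17 ± 0.24 in Ifnar1-KO, or 9.03-fold (2.16e-07), and by 3.57 ± 0.24 in GF, or 11.8-fold (6.22e-08).

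Il1b, the IL-1 beta precursor, fell too but stayed above the background level in mature cells. The CTRL values were 8.67, 9.75 and 9.12 on CCR7- arrays and 5.17, 5.995 and 5.44 on CCR7+ arrays. Those of Ifnar1-KO were 8.07, 8.22 and 8.92, then 6.18, 4.67 and 6.27. Those of GF were 9.26, 8.24 and 8.38, then 5.77, 5.49 and 4.78. The stages were separated by more than 1 in each background, although arrays within a stage differed by more for Il1b than for Il18. Il1b fell by 3.64 ± 0.44 in CTRL, or 12.5-fold (limma adjusted p = 1.63e-05), by 2.70 ± 0.44 in Ifnar1-KO, or 6.48-fold (0.00032), and by 3.28 ± 0.44 in GF, or 9.73-fold (5.09e-05).

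Myeloid cells other than these DCs are known sources of Il1b, Il6 and Tnf, so their markers were read beside the members. Of 12 macrophage and monocyte markers, Adgre1, Mertk, Fcgr1, Marco and Cd163 were near background in all 6 groups. The list's mean was 4.84 to 4.97 on CCR7- arrays and 4.68 to 4.88 on CCR7+ arrays. Within that list Lyz2, lysozyme, fell (-2.49 in CTRL, -2.88 in Ifnar1-KO and -2.44 in GF), as did Csf1r, the receptor for macrophage colony-stimulating factor (-1.002, -1.16 and -1.22), while Vcam1, an adhesion molecule, rose by 1.94, 1.94 and 2.03. C1qb, a complement chain, also passed the test in Ifnar1-KO (0.33) and GF (0.46). Its CCR7- means were near background in both, as was its CCR7+ mean in Ifnar1-KO. Of 10 neutrophil markers, Ly6g, Csf3r, Cxcr2, Ngp, Mmp8 and Mmp9 were near background in all 6 groups, and the list's mean was 3.71 to 4.23. S100a9, a calcium-binding protein of neutrophils, rose from means near background by 0.66 in CTRL and 0.99 in Ifnar1-KO, and Camp, an antimicrobial peptide, rose by 0.37 in GF. Of 13 thymocyte markers, 2 were higher in CTRL maturation and 3 in each of Ifnar1-KO and GF, with none lower. The median change of that list was 1.30 in CTRL, 1.89 in Ifnar1-KO and 1.39 in GF. The part of these markers in the members' changes was not tested.

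**Figure D2:**
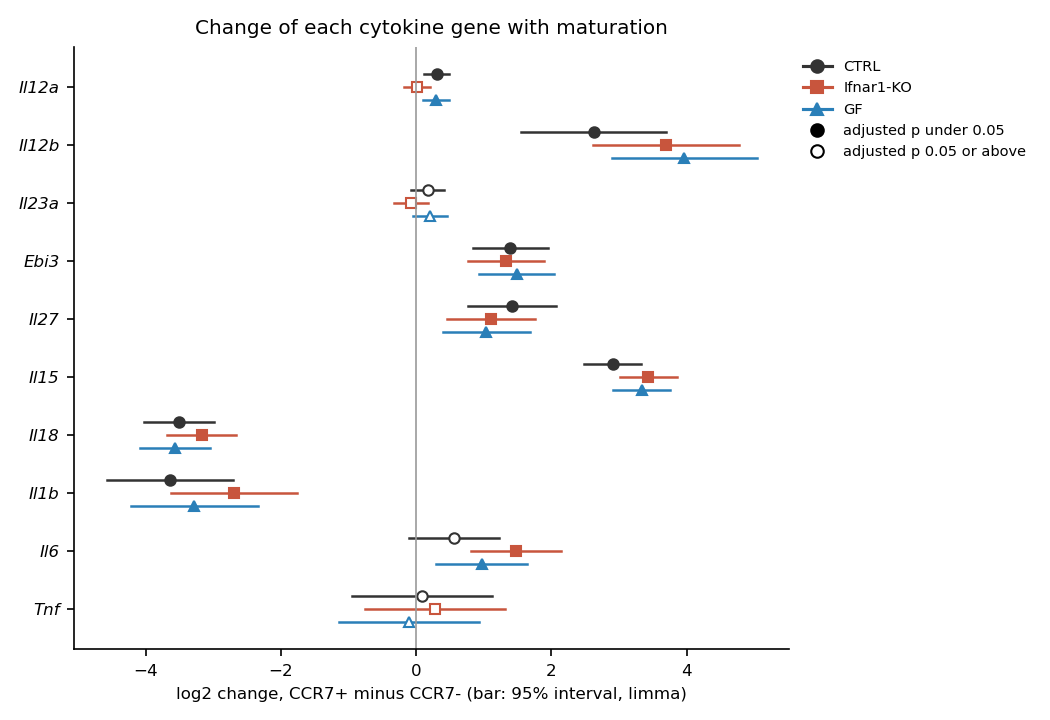
Log2 change with maturation (horizontal axis, CCR7+ minus CCR7-) of the 10 genes in CTRL, Ifnar1-KO and GF, with 95% confidence intervals from the limma fit; filled points were called. Il15 and Il12b are the genes furthest to the right and Il18 and Il1b those furthest to the left in all 3 backgrounds, and the Tnf intervals span 0.

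Il6 encodes a pleiotropic cytokine that acts on T and B cells. CTRL cells gave 5.88, 6.26 and 6.18 on CCR7- arrays and 6.60, 7.30 and 6.10 on CCR7+ arrays. Ifnar1-KO cells gave 5.36, 4.999 and 5.78, then 7.09, 7.18 and 6.31. GF cells gave 6.23, 6.09 and 5.67, then 7.25, 6.49 and 7.15. Stages overlapped in CTRL through CCR7+ replicate 3 and did not overlap in Ifnar1-KO or GF. The CTRL change of 0.56 ± 0.31 was not called (limma adjusted p = 0.213). Il6 rose by 1.48 ± 0.31 in Ifnar1-KO, or 2.79-fold (limma adjusted p = 0.00281), and by 0.97 ± 0.31 in GF, or 1.96-fold (limma adjusted p = 0.0387). Without both Ifnar1-KO replicate 2 arrays the Ifnar1-KO change was 1.13 (limma adjusted p = 0.0525). The GF call was lost without CCR7- replicate 2 (limma adjusted p = 0.0698), CCR7- replicate 3 (0.144), CCR7+ replicate 1 (0.136) or CCR7+ replicate 3 (0.114). The call differed between backgrounds, but the difference in change between Ifnar1-KO and CTRL was 0.92 ± 0.44, with a 95% interval of -0.03 to 1.87, and was not called.

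Tnf, the precursor of tumour necrosis factor, showed no call and a wide spread at both stages. In CTRL it read 8.41, 9.85 and 8.92 on CCR7- arrays and 8.56, 9.67 and 9.20 on CCR7+ arrays. In Ifnar1-KO it read 9.003, 9.53 and 8.26, then 10.03, 9.08 and 8.52. In GF it read 9.58, 8.42 and 8.73, then 9.28, 8.95 and 8.17. In each background the ranges of both stages overlapped, far above background. The change was 0.08 ± 0.49 in CTRL, 0.28 ± 0.49 in Ifnar1-KO and -0.11 ± 0.49 in GF (limma adjusted p = 0.916, 0.808 and 0.924). The 95% interval in CTRL was -0.96 to 1.12, so a change of that size in either direction lies within the error.

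No difference between backgrounds was called in these genes. The change with maturation in Ifnar1-KO minus that in CTRL, and in GF minus that in CTRL, was called for 0 of 10 genes and for 0% of all genes in both comparisons. At an unadjusted p under 0.05, limma gave 1 member and 901 genes (4.52%) in the first and 0 members and 660 genes (3.31%) in the second. The member was Il12a, near background throughout, at -0.29 ± 0.13 (unadjusted p = 0.0379, limma adjusted p = 0.958). For Il12b the maturation change was larger than in CTRL by 1.07 ± 0.71 in Ifnar1-KO, with a 95% interval of -0.45 to 2.59, and by 1.34 ± 0.71 in GF, with an interval of -0.18 to 2.86. For Il15 the intervals were -0.07 to 1.13 and -0.17 to 1.03, and for Il18 they were -0.40 to 1.06 and -0.79 to 0.67. These intervals do not show that the backgrounds act alike. Both comparisons share the CTRL arrays.

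Within a stage, background was tested in 4 comparisons, and no member was called in any of them. The share of all genes called was 0% for Ifnar1-KO minus CTRL in CCR7- cells, 0.015% in CCR7+ cells, and 0.015% and 0.0301% for GF minus CTRL in CCR7- and CCR7+ cells. In mature cells the single member with an unadjusted p under 0.05 was Il12a, at -0.22 ± 0.09 in Ifnar1-KO minus CTRL. Both of its group means were near background. Of all genes, 582 (2.92%) had such a p for Ifnar1-KO and 1168 (5.86%) for GF. In immature cells 3 members had such a p for Ifnar1-KO and 2 for GF, against 1401 (7.03%) and 1260 (6.32%) of all genes. Il12b was lower than in CTRL by 1.33 ± 0.50 in Ifnar1-KO on the log2 scale (unadjusted p = 0.0187, limma adjusted p = 0.681), with all 3 arrays below all CTRL arrays. It was lower by 1.64 ± 0.50 in GF (unadjusted p = 0.00544, limma adjusted p = 0.766), where 2 arrays lay below CTRL and replicate 1 among them. Without GF CCR7- replicate 1 the GF difference was -2.48 and was called (limma adjusted p = 0.00307), and without GF replicates 2 and 3 it was 0.04. Il15 was lower by 0.73 ± 0.20 in Ifnar1-KO and 0.67 ± 0.20 in GF (unadjusted p = 0.00221 and 0.0043), and in each its range overlapped that of CTRL. Il6 was lower by 0.72 ± 0.31 in Ifnar1-KO (unadjusted p = 0.0362), with no overlap.

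**Figure D3:**
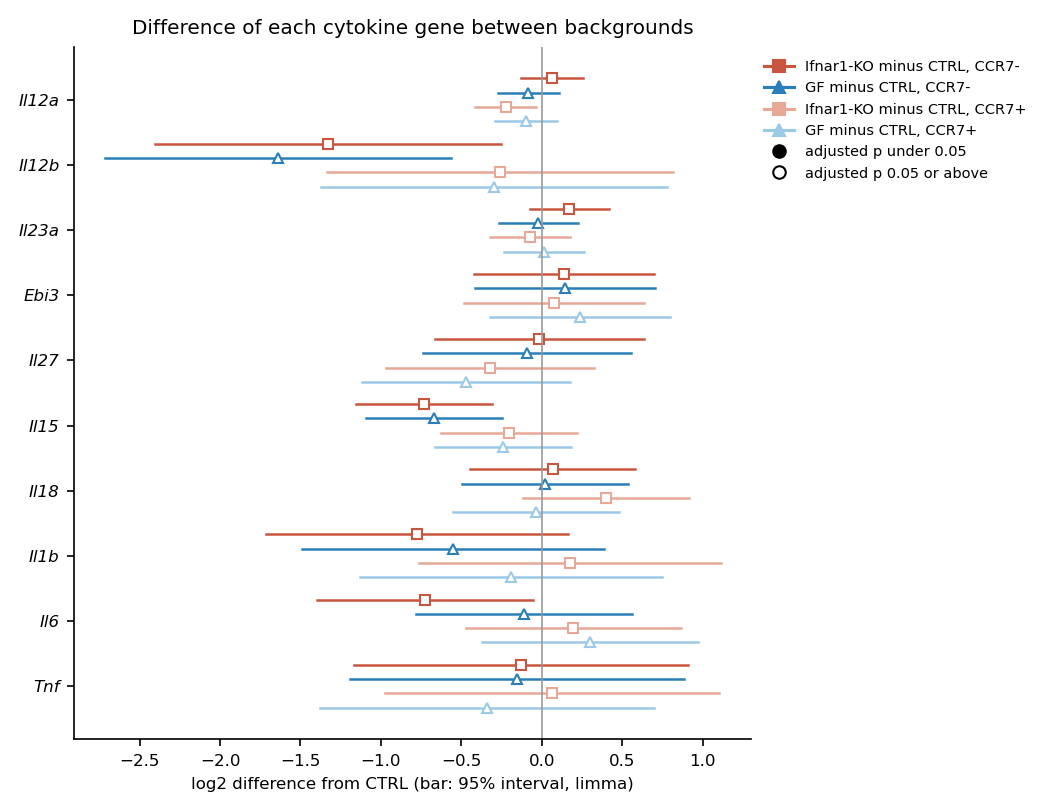
Log2 difference of Ifnar1-KO and of GF from CTRL (horizontal axis) for the 10 genes in CCR7- and in CCR7+ cells, with 95% confidence intervals from the limma fit. No gene was called, and the Il12b intervals in CCR7- cells are among those that lie wholly below 0.

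Mature DC markers also varied over the immature arrays. On CCR7- arrays the mean of the 8 markers was 8.09, 8.10 and 8.24 in CTRL, 7.33, 7.96 and 7.17 in Ifnar1-KO and 8.33, 6.94 and 7.26 in GF. Ccr7, which is among the 8 markers, read 9.03, 8.98 and 8.95 in CTRL, 7.85, 8.54 and 7.29 in Ifnar1-KO and 9.09, 7.25 and 7.77 in GF. GF replicate 1 was at the CTRL level for the markers, Ccr7 included, and for Il12b, and GF replicates 2 and 3 were low in both. Il15, which rose with maturation, and Il1b, which fell, were also highest in GF on replicate 1. So were Il6 and Tnf, which had no call with maturation in CTRL. Ebi3 and Il18 were highest in GF on replicate 2, and Il12a, Il23a and Il27 were lowest in GF on replicate 1. Among Ifnar1-KO arrays the markers and Il12b differed in order, with replicate 2 highest for the markers and lowest for Il12b. The part of the maturation state of the sorted CCR7- cells in the Il12b differences was not tested. In such bulk samples fewer cells with a transcript and less transcript per cell cannot be told apart.

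**Figure D4:**
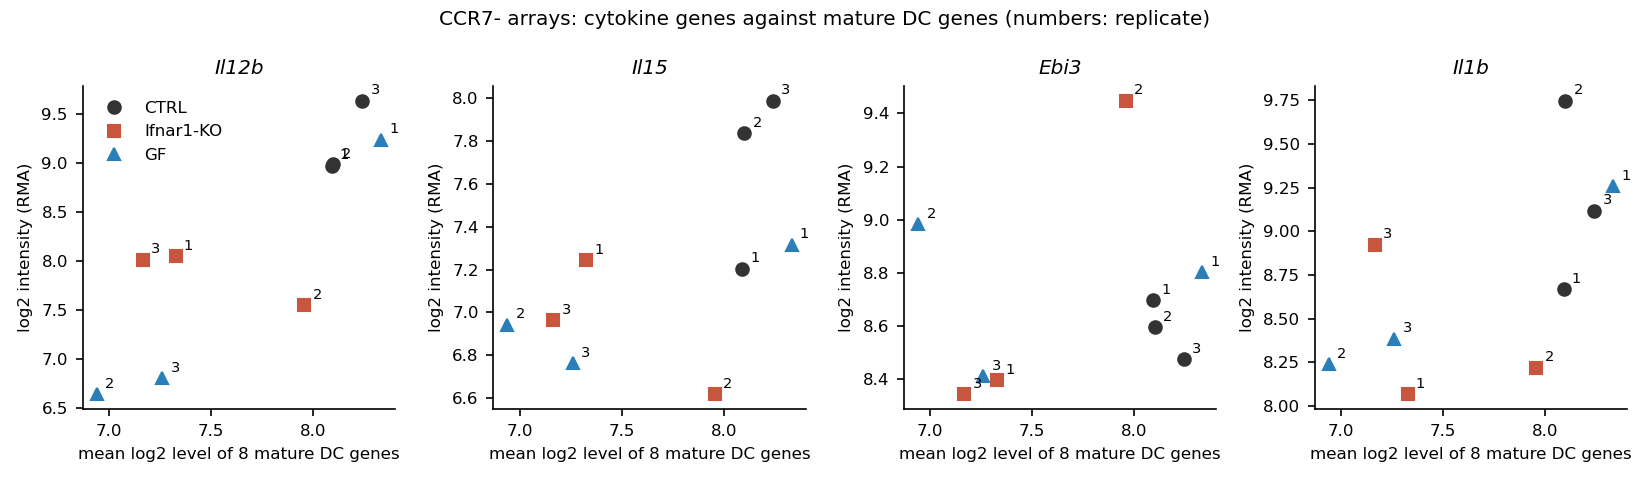
Log2 levels of Il12b, Il15, Ebi3 and Il1b (vertical axes, 1 scale per panel) on the 9 CCR7- arrays against the mean log2 level of 8 mature DC markers on the same array (horizontal axes), with 1 point per array, coloured by background and numbered by replicate. For Il12b, GF replicate 1 sits with the CTRL arrays while GF replicates 2 and 3 are low on both axes. Il15 (7.32, then 6.94 and 6.76) and Il1b (9.26, then 8.24 and 8.38) are also highest in GF on replicate 1. Il15 rises and Il1b falls with maturation. Ebi3 is highest in GF on replicate 2.

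The receptors and partners of these cytokines were read from lists. Of 11 measured IL-12 family receptor and signalling genes, 4 were higher, 1 was lower and 6 were not called in CTRL, with a median change of 0.50; Ifnar1-KO gave the same counts and GF gave 5, 1 and 5. Stat4, the transcription factor downstream of the IL-12 receptor, rose from 4.25 ± 0.14 to 10.23 ± 0.36 (SD, n = 3) in CTRL, and by 5.83 in Ifnar1-KO and 6.24 in GF. Its CCR7- means were near background in all 3 backgrounds, so these rises may be lower bounds. Il23r, the IL-23 receptor chain, rose from 3.49 ± 0.07 to 7.28 ± 0.72 in CTRL, and by 3.62 and 4.34 in the other backgrounds, again from means near background and so possibly by more. Il6ra, the IL-6 receptor alpha chain, fell (-1.84 in CTRL, -1.26 in Ifnar1-KO and -1.11 in GF).

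Il15ra, which presents IL-15 in trans, rose with Il15. It went from 6.64 ± 0.07 to 10.66 ± 0.28 in CTRL, and rose by 3.99 in Ifnar1-KO and 4.20 in GF. Its list holds 8 measured genes for IL-15 and TNF receptors, their adaptors and shedding. Of these, 4 were higher, 2 lower and 2 not called in CTRL, with a median of 0.55. The higher and lower counts were 4 and 1 in Ifnar1-KO and 4 and 2 in GF. The 2 TNF receptors moved in opposite directions: Tnfrsf1b, the inducible receptor, rose by 3.18 in CTRL, 3.13 in Ifnar1-KO and 3.33 in GF, and Tnfrsf1a, which carries a death domain, fell (-1.34, -1.01 and -1.22). Adam17, the protease that sheds TNF, fell (-0.91 in CTRL and -0.77 in GF), and its Ifnar1-KO change of -0.36 was not called.

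Genes around IL-1 and IL-18 moved in both directions. Of 19 measured other IL-1 family genes, 4 were higher, 2 lower and 13 not called in CTRL, with a median of 0.08. The counts were 2 higher and 1 lower in Ifnar1-KO and 3 higher and 3 lower in GF. Il18bp, the secreted protein that binds and neutralises IL-18, rose from 6.75 ± 0.04 to 9.68 ± 0.35 in CTRL, and by 2.90 in Ifnar1-KO and 3.05 in GF. Irak3, an inhibitor of IL-1 receptor signalling, rose by 1.15, 0.56 and 0.80 from CCR7- means near background, so these may be lower bounds. Myd88, the adaptor of that receptor, fell (-1.69, -1.52 and -1.34). Il1rap, the receptor's accessory chain, fell (-0.60 in CTRL and -0.59 in GF) and changed by -0.32 in Ifnar1-KO without a call; its CCR7+ means were near background, as was its Ifnar1-KO CCR7- mean. Of 10 inflammasome and release genes, 2 were higher, 4 lower and 4 not called in CTRL, with a median of -0.57. In Ifnar1-KO 3 were higher and 2 lower, with a median of -0.28, and in GF 1 was higher and 4 lower, with a median of -0.57. Nlrp3, a sensor that activates caspase-1, fell from 5.34 ± 0.33 to 3.50 ± 0.18 in CTRL, which is near background, with changes of -1.30 in Ifnar1-KO and -1.73 in GF. Nlrp1b, another sensor, fell by 2.39 in CTRL, and its changes of -1.33 and -0.60 in Ifnar1-KO and GF were not called. The CCR7+ means of Nlrp3 and Nlrp1b were near background in all 3 backgrounds, so their falls may be lower bounds. Casp4, the caspase that senses cytosolic lipopolysaccharide, rose by 1.68, 2.21 and 1.70. Gsdmd, the pore-forming gasdermin, rose by 0.94 in CTRL and 1.15 in Ifnar1-KO and changed by 0.47 in GF without a call.

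Of 13 measured transcription factors known to act at cytokine genes, 8 were higher and 5 not called in each background, with medians of 0.99 in CTRL, 1.04 in Ifnar1-KO and 0.88 in GF. Irf1 rose by 3.17, 3.65 and 3.83, and Relb, a subunit of the alternative NF-kB pathway that is also among the mature DC markers, rose by 2.89, 3.40 and 3.08. Of 7 measured genes listed for control of cytokine mRNA decay, 1 was higher and 1 lower in each background. Zfp36l1 rose by 1.65, 1.86 and 1.89, and Zfp36l2 fell (-2.84, -2.70 and -2.29). No gene of these lists was called between backgrounds. The lists' counts are descriptions and were not tested as sets.

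**Figure D5:**
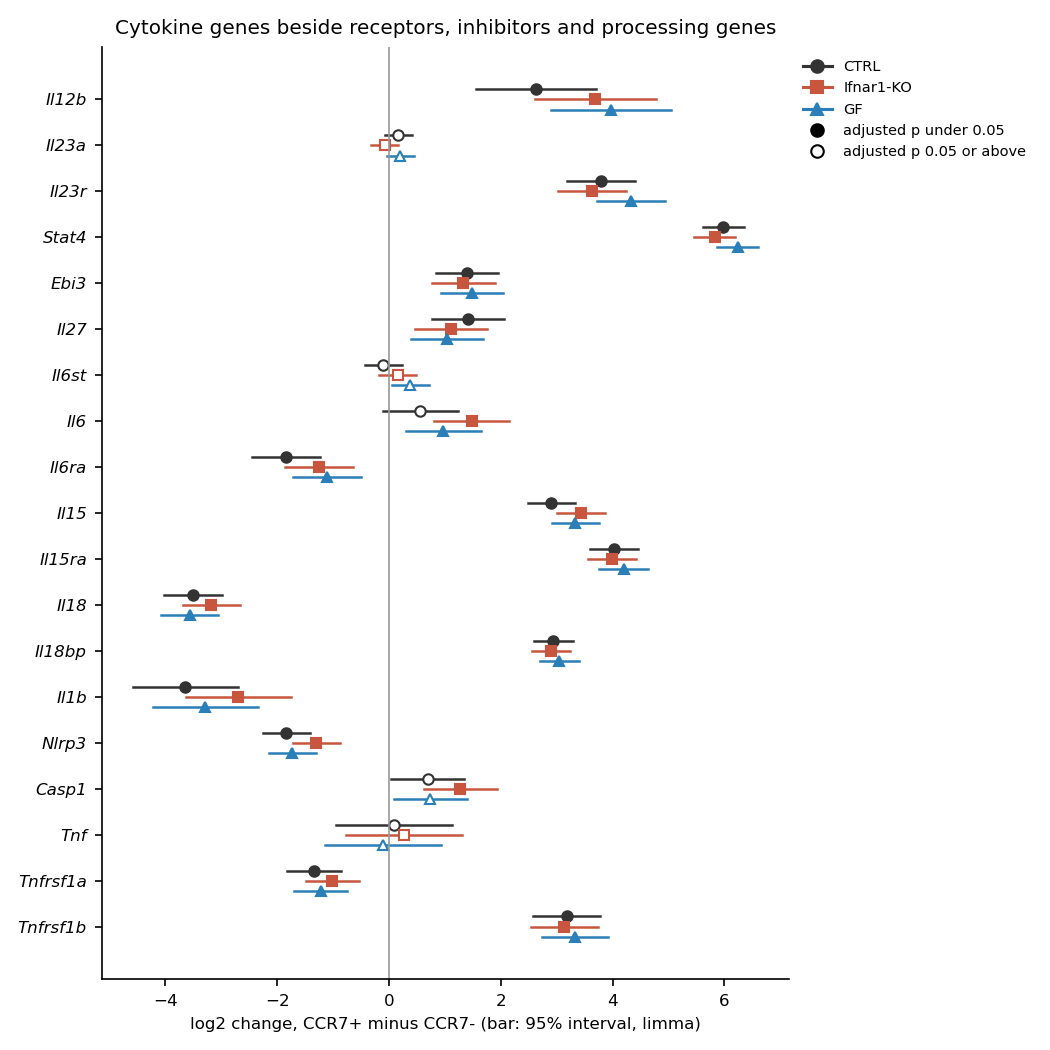
Log2 change with maturation (horizontal axis, CCR7+ minus CCR7-) of cytokine genes beside their receptor, inhibitor, signalling and inflammasome genes in CTRL, Ifnar1-KO and GF, with 95% confidence intervals from the limma fit; filled points were called. Stat4, Il15ra and Il23r lie furthest to the right and Il18 and Il1b furthest to the left in CTRL, with Stat4 and Il23r near background in CCR7- cells and Il18 in CTRL and GF CCR7+ cells, so that their changes may be lower bounds.

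The genes most like each member were found as those with the smallest root mean square difference over the 18 arrays after subtraction of each gene's mean, on the log2 scale. Il12b was closest to H2-M2, a non-classical MHC class I gene (0.44), and Daam1 (0.45). Il15 was closest to Pfkfb3, a regulator of glycolysis (0.22), and Epsti1 (0.25). Ebi3 was closest to Slc33a1 (0.18) and Zfand3 (0.18), and Il27 to Plekhg1 (0.26) and Grina (0.27). Among the genes that fell, Il18 was closest to Itgb2, the beta-2 integrin chain (0.25), and Anxa6 (0.27), and Il1b to Pik3ap1 (0.35) and Ciita, the activator of MHC class II genes (0.41). Il12a, near background, was closest to Slc6a8 (0.076) and Nkd2 (0.076). The distances for Il12b and Il1b were the largest of these. These likenesses mostly share the difference between the stages and are given as descriptions.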

How the data were processed

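RNA of sorted cells was amplified and hybridised to Affymetrix mouse gene arrays, 1 colour and 1 array per sample. The deposited log2 values were made by the authors with RMA in the oligo package, per the submitters' processing notes; RMA subtracts background, normalises quantiles and summarises probes, which compresses low signals. Genome build: not given in the sources used here. Of 35556 probesets, 21789 carry 1 gene symbol, 1621 several and 12146 none in the platform annotation; only the first were used.

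A limma 3.58.1 model (R 4.3.3) with 1 mean per group was fitted to all 18 arrays and 19938 genes, with empirical Bayes variances (14.4 degrees of freedom) and Benjamini-Hochberg adjustment within each of 9 comparisons. The script was tested on simulated data. The number of arrays limits the precision. The 10 genes, the pathway lists and the rules were chosen with earlier results of these data known. From each pathway list up to 2 called genes per direction, those with the largest CTRL change, were named. For each member called in CTRL the 2 genes most like it were named.

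Replicate numbers come from the sample codes. Deviations of same-numbered CCR7- and CCR7+ arrays correlated at 0.188, 0.147 and 0.100 in CTRL and 0.284, 0.321 and 0.236 in Ifnar1-KO. In GF they correlated at 0.267, 0.0035 and 0.030. Differently numbered arrays were not compared, so these values do not settle whether the numbers pair the arrays. The main fit used no replicate block. Alternatives tried were array weights, a variance trend on intensity, median centring, the mean of all probesets, a filter on low levels, fits on only the groups compared, a replicate block, a mark in the sample codes (a trailing r) as covariate and leaving out arrays. That mark was on every GF array, on most Ifnar1-KO arrays and on a minority of CTRL arrays, so it is partly confounded with background.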

Additional observations from a re-analysis of the deposited data

How the results depend on the processing

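Il12b, Il15, Il18 and Il1b kept their direction and their call with maturation in all 3 backgrounds under every alternative run, Ebi3 and Il27 did so in CTRL, and 395 of 434 alternative values of the 10 genes with maturation kept both. With only the groups compared in the fit, Ebi3 (adjusted p = 0.0548) and Il27 (0.116) lost their call in Ifnar1-KO, and Il12a lost it in CTRL (0.0776) and GF (0.0788). Array weights ended the GF calls of Il12a (0.085) and Il6 (0.0614), and median centring that of Il6 (0.0534). The replicate block gave 7, 7 and 6 members called in CTRL, Ifnar1-KO and GF, beside 5556, 4353 and 4555 of all 19938 genes. It lost Il12a (limma adjusted p = 0.0501) and Il6 (0.0709) in GF and changed no other member's call. Sign changes concerned genes with no call: Tnf with array weights was -0.084 in CTRL and 0.066 in GF, Il12a in Ifnar1-KO was -0.020 without both replicate 2 arrays, and leaving out 1 array gave Tnf -0.24 to 0.48 in CTRL, -0.14 to 0.62 in Ifnar1-KO and -0.35 to 0.23 in GF, and Il12a -0.018 to 0.042 in Ifnar1-KO. Leaving out GF replicates 2 and 3, and both Ifnar1-KO replicate 2 arrays, was chosen after seeing the data; a lone GF array is then assumed to vary like the other groups. Without the GF arrays, 4 members and 2281 genes were called with GF maturation, 4 genes in GF minus CTRL maturation and 20 in GF minus CTRL CCR7+ cells, and the Il12b difference in CCR7- cells was 0.039.

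Between backgrounds, the count of all genes called moved as follows. For Ifnar1-KO in CCR7- cells it was 3 with the trend, 5 with weights, 3 with centring, 1 with the level filter, 1 without replicate 2 and 0 to 2 without 1 array. For Ifnar1-KO in CCR7+ cells it was 1 with the trend, 5 with weights, 0 with only the groups compared, 1 with the replicate block, 1 with the code mark and 1 to 7 without 1 array. For GF in CCR7- cells it was 8 with weights and 3 to 41 without 1 array, with 0 to 1 members. For GF in CCR7+ cells it was 1 with only the groups compared, 3 with the code mark and 2 to 13 without 1 array. The causes were not tested. Il12a and Il23a gave no value under the level filter. Signals near background limit Il12a, Il23a, immature Stat4, Il23r and Irak3, and mature Il18, Nlrp3, Nlrp1b and Il1rap.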
